A study of Mus musculus with 26 samples.

Results

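The genes described here are 147 of the 16718 in the deposited table, chosen because they stood high in the middle of a chemical reprogramming course and low before and after it. The rule used the mean of days 12, 18 and 22 of the course with all chemicals, called the mid-course mean below. It had to be at least 50, at least 4 times the value in mouse embryonic fibroblasts (MEF) plus 1, and at least 4 times the mean of days 36 and 40 plus 1. These thresholds were passed by 169 genes, of which 22 were left out by symbol because they belong to named families such as keratins, chemokines and cytochromes P450. Among those 22 were Krt5, Krt6a and Krt13, Cyp26a1 and Mmp9.

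RNA was sequenced from 26 mouse libraries of a study on the chemical induction of pluripotency. MEF, the starting cells, had 1 library (day 0). The course with all chemicals (full course) and the course without BrdU each had 1 library on days 6, 12, 18, 22, 30, 36 and 40. The course without Chir had 1 library on days 6, 12, 18, 22 and 30, and established chemically induced pluripotent stem cells (CiPSC) had 6. BrdU is a thymidine analogue that is built into DNA, and Chir is the usual short name of an inhibitor of the kinase GSK3 that switches on Wnt signalling. The other chemicals of the courses, the strain and the origin of the CiPSC lines are not given in the sources used here.

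Fibroblasts exposed to reprogramming chemicals lose their own program and pass through intermediate states before pluripotency genes are switched on. Such intermediates can express genes of unrelated tissues. Several kinds stand among the members. Small proline-rich proteins and involucrin are crosslinked under the membrane of squamous epithelial cells into the cornified envelope. Prolactin-family hormones are made by the placenta from clusters of duplicated genes. Visceral endoderm takes up proteins through the receptor pair of cubilin and amnionless and secretes plasma proteins, and retinoic acid switches on its own receptor and the enzymes that store and clear it.

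Deposited values were whole numbers that appear quantile-normalised and carry no unit, with sums of 4143561 to 4162600 in every library and a ceiling of 21988, which 3 members reached. They do not allow levels to be compared between genes, and the sequencing depth is unknown. Marker sums fitted the labels at both ends. The 10 fibroblast markers summed to 103297 in MEF and to 3253 to 22463 in CiPSC, and the 10 pluripotency markers to 1487 in MEF and 27646 to 43474 in CiPSC. The 10 endoderm markers summed to 4384 in MEF and to 320 to 539 in CiPSC. They summed to 3588 to 29651 over the full course, to 2557 to 3575 without BrdU and to 2617 to 4285 without Chir. Every library of the 2 courses that lacked a chemical thus lay below MEF. The part of endoderm cells in any member's level was not tested. In bulk RNA, fewer cells of a type and less RNA per cell cannot be told apart. Each day of a course is a single library. The days of a course were taken as its repeats although they follow from one another, so the p-values below measure the spread between days or libraries only.

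The mid-course mean of the members ran from 50.7 to 18438, with a median of 182.3. It was a median of 17.0 times MEF plus 1 and 9.08 times the late mean plus 1, values that the rule itself required to be high. Just inside the level threshold were Prl2c1 (50.7), Slc26a10 (51.7) and Lrrtm4 (52), and just outside were Ptpn5 (49.7), Dio3 (47.7) and Sema3g (47.7). For the ratio to MEF, Hilpda (4), Ramp3 (4.12) and Dhrs3 (4.19) were just inside and Ecm1 (3.94), Slc22a15 (3.93) and Raet1e (3.84) just outside. For the ratio to the late days, Rorb (4.02), Trf (4.06) and Tmem108 (4.11) were just inside and Hdc (3.92), Egfl7 (3.92) and Tmem255a (3.91) just outside. Members were also ranked by the mid-course mean over the larger of MEF plus 1 and the late mean plus 1. First stood Mcpt1, a mast cell protease gene (492), Ldoc1 (77.9) and Mucl2 (71.3). Cntnap5b, Ly6d, Slpi, Mt3, Unc45b, Prl2c3 and Tmprss11g followed (49.3 to 63.7). Mcpt1, Mucl2, Cntnap5b and Mt3 were listed at 0 in MEF and on days 36 and 40. Their ratios are therefore only their mid-course means, and the ranking favours genes listed at 0.

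Days 6 and 30 of the full course were not used by the rule, but the days 12, 18 and 22 they are set against were chosen to be high, so these ratios and counts are given as a description. Day 30 lay below each of days 12, 18 and 22 in 142 of 147 members (96.6%, against 27% of all genes). The median ratio of day 30 to day 22, on value + 1, was 0.136 for members and 1 for all genes. Members listed at 0 on day 30 included Csn3 (the milk protein kappa-casein), Amelx (the enamel protein amelogenin), Mcpt1, Cntnap5b and Lrrtm4. The slowest to fall were 9330159F19Rik (day 30 at 0.845 times its mid-course mean), Bpifb5 (0.712), Cubn (0.584), Spon2 (0.559) and Hopx (0.402). Day 6 was above the mid-course mean in 63 members (42.9%, against 44.9% of all genes), a share near that of all genes. Rarb (4 times the mid-course mean), Rtn4rl2 (3.92), Pla2g7 (3.82), Gm15287 (3.72) and Enpp2 (3.71) were the furthest above it on day 6. At the other end, Gc, Bpifb5 and Chrna4 were listed at 0 on day 6.

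**Figure D1:**
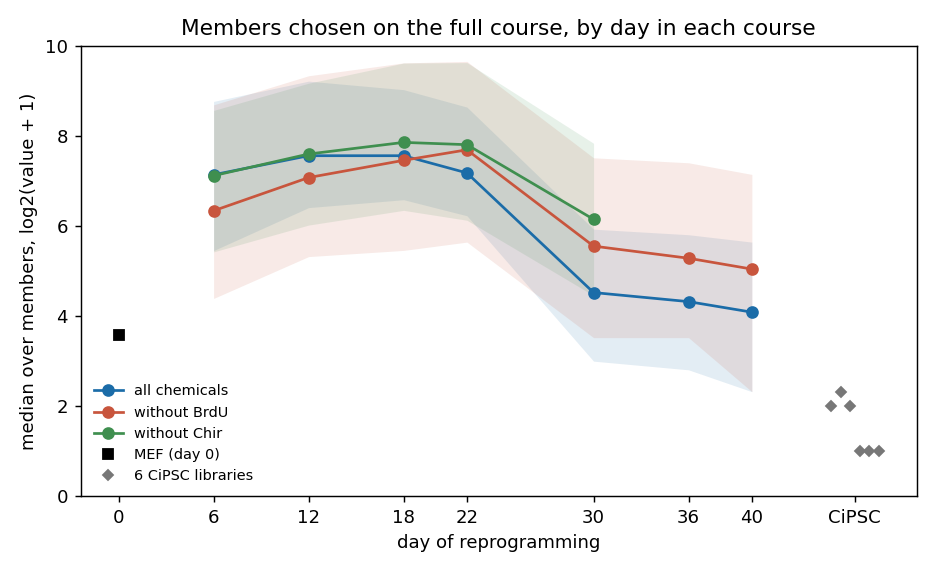
Median (points) and middle 50% (bands) of log2(value + 1) over the 147 members by day of reprogramming, with 1 library per course and day, 1 MEF library and 6 CiPSC libraries (diamonds). Members were chosen on MEF and on days 12, 18, 22, 36 and 40 of the full course. The medians of the other courses also stand lower on day 30 than on day 22.

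The members' later fall was tested in the course without BrdU. In this course, whose libraries the rule did not use, 76 of the 141 members that could be tested were higher on days 12 to 22 than on days 36 and 40 (53.9%, against 7.42% of all genes). Prl2c2 and Prl2c3 of the prolactin family, Notum, a secreted inhibitor of Wnt proteins, and Scd1, a fatty acid desaturase, were among them. Only 3 members were lower (2.13%, against 7.25% of all genes), Rtn4rl2 and Gc among them. The median log2 difference was 1.98 for members and -0.02 for all genes, and 1.85 over the 135 members not listed at 0 on both late days. Day 30 was below each of days 12, 18 and 22 in 116 members without BrdU (78.9%, against 27.2% of all genes) and in 116 without Chir (78.9%, against 30.6%). The median ratio of day 30 to day 22 was 0.333 and 0.402 in these courses, and 1 for all genes in both. The count of 76 rested on few libraries: it was 28 without day 18, 38 without day 22, 38 without day 36 and 20 without day 40.

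**Figure D2:**
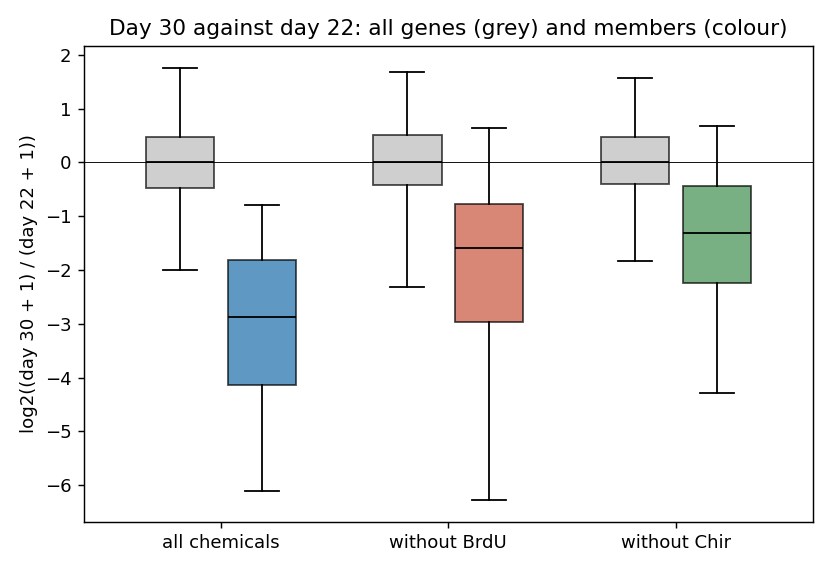
Ratio of day 30 to day 22 on value + 1 (log2) for all 16718 genes (grey) and the 147 members (colour) in each course. Boxes show the median and middle 50%, and whiskers the 5th to 95th percentile over genes. The member medians correspond to ratios of 0.136, 0.333 and 0.402.

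Of the genes named by this comparison, Csf2rb, a shared receptor subunit for blood cell cytokines, stood at 118, 226 and 276 on days 12, 18 and 22 without BrdU and was listed at 0 on days 36 and 40. Bcl6b, a transcriptional repressor, stood at 68, 135 and 164, and Prl6a1 at 72, 130 and 126, and both were listed at 0 on both late days. Mcpt1 went from 42 to 252 and 458 and was also listed at 0 on both late days, but its call was lost without any one of days 18, 22, 36 and 40 (adjusted p = 0.0549 to 0.123). In each of these genes all 3 mid-course days lay above both late days. Ldoc1, a gene derived from a retrotransposon, stood at 546, 878 and 954 against 11 and 4, a log2 difference of 6.64 ± 0.46 (SE, adjusted p = 0.00328). Slc14a1, a urea transporter, stood at 174, 436 and 451 against 10 and 1 (6.12 ± 0.84, adjusted p = 0.0151), and its call was lost without day 18, 22 or 40 (adjusted p = 0.0701 to 0.0873). In the opposite direction, Rtn4rl2, a receptor of the Nogo receptor family, stood at 139, 154 and 86 against 336 and 404 (-1.58 ± 0.29, adjusted p = 0.0286), a call lost without day 12, 18, 36 or 40 (adjusted p = 0.0642 to 0.157) and with no filter (adjusted p = 0.0538).

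Mid-course levels were then set side by side across the 3 courses. Because the rule took genes that were high in these full course libraries, the other courses are set beside it without a test. With mid-course means taken on value + 1, 28 members were 4 or more times lower without BrdU (19%, against 5.64% of all genes) and 10 were 4 or more times higher (6.8%, against 3.88%). Without Chir, 23 were 4 or more times lower (15.6%, against 5.3%) and 14 were 4 or more times higher (9.52%, against 4.21%). In both courses 93 members stayed within a factor of 4, 16 were 4 or more times lower and 2 were 4 or more times higher. These joint counts were not taken over all genes, so whether they are unusual cannot be said. The median log2 difference was 0.06 without BrdU and 0.10 without Chir, and 0 for all genes.

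**Figure D3:**
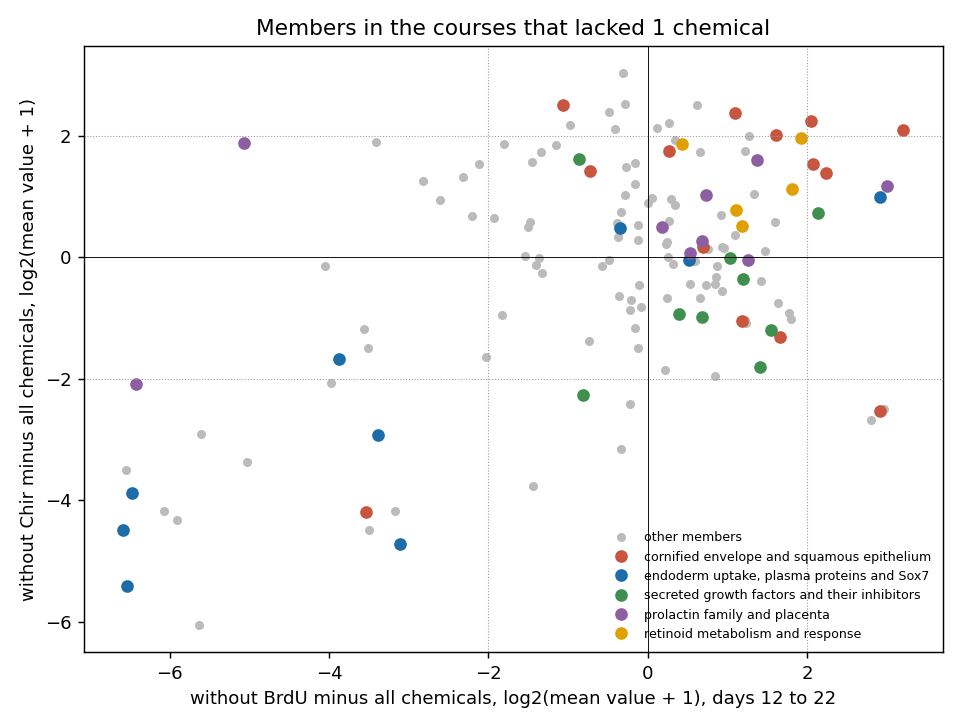
Mean of days 12 to 22 in the course without BrdU (horizontal axis) and without Chir (vertical axis), each as log2(mean + 1) minus that of the full course, for 147 members coloured by role. Dotted lines mark a factor of 4. Of the 9 endoderm genes, 6 lie at the lower left.

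Squamous and cornified envelope genes numbered 14. Beside the full course, the mid-course mean was higher in 11 of them without BrdU and in 10 without Chir. The median log2 difference was 1.40 and 1.49, against 0.06 and 0.10 over all members and 0 for all genes. Among them, 7 are neighbours in a stretch of mouse chromosome 3 (mm10, 92215920 to 92573735) that holds 16 genes of the table. These are Ivl, which encodes involucrin, and Sprr1a, Sprr1b, Sprr2a2, Sprr2a3, Sprr2b and Sprr2f, which encode small proline-rich proteins. The 250 bases before the RefSeq start sites (GRCm38.p6) of 5 of them are shown here. Each holds a loose form of the motif of AP-1, a dimer of Fos and Jun proteins, with any base at N. The match reads TGAATCA in Sprr1b and TGAGTCA or TGACTCA in the others. Capitals mark that motif (TGANTCA, searched on both strands), and all sequences run 5′ to 3′ on the gene's own strand.
Sprr1a, chr3:92485882-92486131, minus strand: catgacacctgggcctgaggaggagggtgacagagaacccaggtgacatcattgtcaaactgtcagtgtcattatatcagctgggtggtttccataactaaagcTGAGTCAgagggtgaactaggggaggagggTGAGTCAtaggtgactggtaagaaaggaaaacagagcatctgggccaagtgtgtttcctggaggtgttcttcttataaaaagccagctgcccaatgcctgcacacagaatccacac
Sprr1b, chr3:92438780-92439029, minus strand: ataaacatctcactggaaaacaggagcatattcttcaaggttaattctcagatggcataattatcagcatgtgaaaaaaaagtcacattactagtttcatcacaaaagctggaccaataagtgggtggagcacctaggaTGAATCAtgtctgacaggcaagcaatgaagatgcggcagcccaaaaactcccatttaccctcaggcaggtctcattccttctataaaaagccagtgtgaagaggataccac
Sprr2b, chr3:92316455-92316704, plus strand: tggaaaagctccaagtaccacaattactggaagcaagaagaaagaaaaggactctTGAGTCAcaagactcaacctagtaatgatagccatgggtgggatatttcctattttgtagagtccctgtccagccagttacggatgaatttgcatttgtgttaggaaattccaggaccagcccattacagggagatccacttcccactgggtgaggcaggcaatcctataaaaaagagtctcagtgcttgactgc
Sprr2f, chr3:92364937-92365186, plus strand: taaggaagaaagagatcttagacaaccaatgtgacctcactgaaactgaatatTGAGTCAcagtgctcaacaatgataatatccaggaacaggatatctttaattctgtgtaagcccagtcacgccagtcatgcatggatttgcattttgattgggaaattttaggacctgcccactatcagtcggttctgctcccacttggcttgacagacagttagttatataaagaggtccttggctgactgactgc
Ivl, chr3:92573736-92573985, minus strand: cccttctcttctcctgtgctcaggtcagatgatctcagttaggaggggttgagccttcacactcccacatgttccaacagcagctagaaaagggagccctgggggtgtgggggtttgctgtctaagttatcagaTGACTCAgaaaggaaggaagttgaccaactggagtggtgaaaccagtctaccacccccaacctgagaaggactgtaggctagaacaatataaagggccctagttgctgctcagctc

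Counted from the start site, the first base of the motif lay at -146 and -116 in Sprr1a, -111 in Sprr1b, -116 in Ivl, -195 in Sprr2b and -197 in Sprr2f. The windows of Sprr2a2 and Sprr2a3 held no such letters. Of the other 8 Sprr genes measured, 7 had a window, and 5 of those held the motif, so it did not set the members apart from the rest of the family. The 102 members with a RefSeq window had 128 windows (300 bases, of which 50 follow the start). Of these, 13.3% held the AP-1 motif in its loose form, against 5.92% of 15569 windows of table genes. The TATA box (TATAAA) was in 17.2% against 8.89% and the FOXA motif (TGTTTAC) in 6.25% against 2.78%. The other motifs searched differed less: for the TEAD motif (GGAATG) 17.2% against 12.9%, for the motif of GATA factors, written AGATAA, 8.59% against 7.19%, for the HNF1 half-site (GTTAAT) 6.25% against 4.89% and for the SOX motif (ACAATG) 8.59% against 7.89%. The nuclear receptor half-site (AGGTCA) was in 12.5% against 13%, TCF/LEF (CTTTGAT) in 2.34% against 2.76% and the cAMP response element (TGACGTCA) in 2.34% against 2.74%. Several members share nearby duplicated promoters, so these windows are not independent, and a match is a description of letters, not of binding.

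Sprr1a stood at 108, 226, 184, 348, 17, 40 and 28 on days 6, 12, 18, 22, 30, 36 and 40 of the full course, with 15 in MEF. Without BrdU it stood at 32, 311, 1756, 4968, 208, 33 and 32 on the same days, and without Chir at 310, 490, 1192, 1583 and 80 up to day 30. It was listed at 0 in all 6 CiPSC libraries. In all 3 courses its highest day was day 22 and day 30 was lower than any of days 12 to 22. Ivl stood at 122, 136, 148, 177, 1, 4 and 0 in the full course, at 6, 58, 358, 574, 36, 11 and 2 without BrdU and at 195, 440, 862, 1114 and 51 without Chir. Its highest day was likewise day 22 in each course.

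Across days 12 to 22 against days 36 and 40 without BrdU, 10 of the 14 squamous genes were higher and none lower. The shares of all genes were 7.42% and 7.25%. Sprr2b stood at 983, 940 and 691 against 14 and 10 (log2 difference 6.07 ± 0.24, adjusted p = 0.00206). Sprr1b (5.48 ± 0.89, adjusted p = 0.0222), Sprr1a (5.38 ± 1.15, adjusted p = 0.0408) and Ivl (5.26 ± 1.15, adjusted p = 0.0429) also passed, while Sprr2f (4.31 ± 1.31, adjusted p = 0.0883) did not. The genes outside the chromosome 3 stretch that passed were Ly6d and Psca, both small lipid-anchored surface proteins, Slpi, a secreted protease inhibitor of mucosa, and Tmprss11f, a membrane serine protease of squamous epithelium. Reads of the near-identical Sprr2 copies may have been split among them, so the values of single copies are uncertain. Sprr2a2 was at the ceiling of 21988 on days 18 and 22 without BrdU and on days 6 to 22 without Chir, which hides any further difference.

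The same group held members that parted between the courses. Psca stood at 53, 180 and 163 on days 12, 18 and 22 of the full course, at 232, 948 and 1836 without BrdU and at 12, 24 and 30 without Chir. Tmprss11a and Tmprss11g, which lie with Tmprss11f on chromosome 5 (86410410 to 86632424), had mid-course means of 198 and 169 without BrdU and of 24.3 and 35.3 without Chir. Keratins of squamous epithelium, left out of the members by symbol, showed the same order: Krt6a had mid-course means of 175 in the full course, 2760.3 without BrdU and 4.7 without Chir. Gjb5, a gap junction protein, went the other way, with 85, 254 and 224 in the full course and no day above 20 in the other courses.

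**Figure D4:**
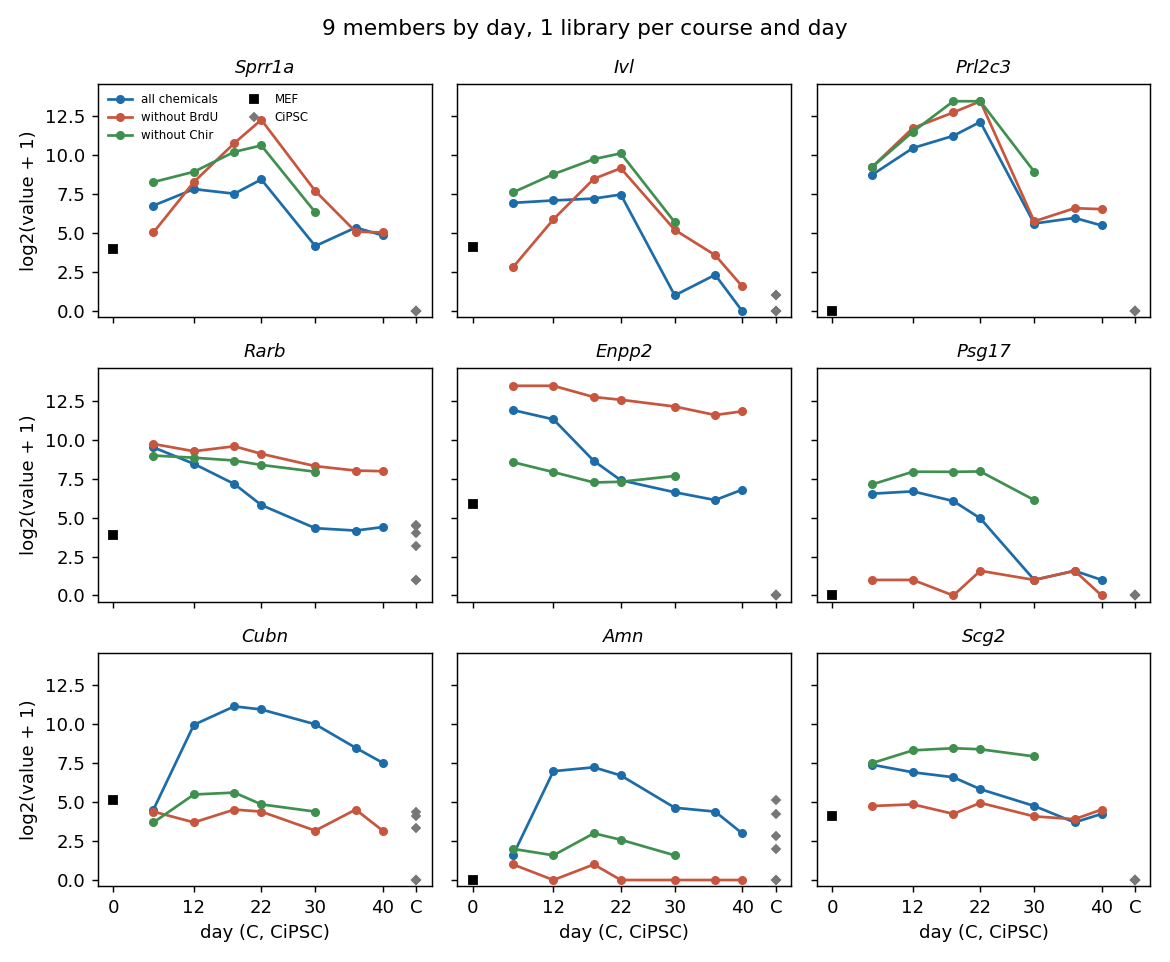
Values of 9 members as log2(value + 1) by day, with 1 library per course and day, MEF (square) and the 6 CiPSC libraries (diamonds at C). Sprr1a, Ivl and Prl2c3 are at their highest on day 22 in each course (for Prl2c3 without Chir, level with day 18) and lower on day 30, Cubn and Amn are high in the full course only, and Enpp2, Psg17 and Scg2 differ between the courses without BrdU and without Chir.

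Prolactin-family and placental genes numbered 9, and 6 of them belong to the Prl family, out of 25 Prl genes in the table. Prl2c3 and Prl2c2, which encode proliferin hormones, lie on chromosome 13 (12790816 to 13005383), and Prl6a1, Prl8a2, Prl8a8 and Prl2c1 lie in the cluster from 27312627 to 27857788 on the same chromosome, beside 10 Prl genes that are no members. Prl2c3 stood at 432, 1412, 2430, 4518, 48, 62 and 44 over the 7 days of the full course and was listed at 0 in MEF. Without BrdU it stood at 616, 3434, 6884, 11346, 53, 96 and 92, and without Chir at 612, 2918, 11346, 11346 and 492. It was at its highest on day 22 in each course, level with day 18 without Chir, and lower on day 30, and it was listed at 0 in all CiPSC libraries. High values in the table take few distinct levels, with 6884, 8336 and 11346 recurring across genes and libraries, so a tie does not show equal expression. Prl2c2 stood at 6884, 8336 and 6884 on days 12, 18 and 22 without BrdU and at 247 and 190 on days 36 and 40 (5.08 ± 0.17, adjusted p = 0.00164). In that comparison 7 of 8 tested members of the group were higher (7.42% of all genes were) and none lower. The log2 difference was 5.53 ± 0.38 for Prl8a2 (adjusted p = 0.00340) and 4.27 ± 0.42 for Prl8a8 (adjusted p = 0.00661). Prl genes are close copies, so reads may have been split between them. The promoter of Prl2c3 is shown for its match to the loose AP-1 motif at -209 (TGAATCA, in capitals).
Prl2c3, chr13:12800080-12800329, minus strand: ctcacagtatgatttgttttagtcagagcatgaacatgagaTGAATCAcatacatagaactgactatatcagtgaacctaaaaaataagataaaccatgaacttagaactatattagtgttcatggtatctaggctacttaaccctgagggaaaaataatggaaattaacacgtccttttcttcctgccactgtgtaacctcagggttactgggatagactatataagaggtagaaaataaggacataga

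Psg17 and Esx1, placental genes outside the Prl family, followed another pattern. Psg17, a pregnancy-specific glycoprotein, stood at 92, 102, 66 and 30 on days 6 to 22 of the full course, at 140, 246, 245 and 249 without Chir and at no more than 2 on any day without BrdU. Esx1, a homeobox factor of the placenta on the X chromosome, stood at 70, 189 and 168 on days 12 to 22 of the full course and at 24, 44 and 30 without Chir, again at 1 or 0 without BrdU. Both were thus near 0 in the course without BrdU, while Plac8 was not (2036, 2762 and 2036 on days 12 to 22).

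The 5 retinoid genes were all higher on day 6 than in mid-course in the full course (44.9% of all genes were). The 5 also kept higher mid-course levels in the other courses. They are Rarb, a retinoic acid receptor, Dhrs3, which reduces retinal, Lrat, which esterifies retinol, Adh7, an alcohol dehydrogenase, and Rarres2, the secreted protein chemerin. Rarb stood at 729, 350, 142, 55, 19, 17 and 20 over the full course. Without BrdU it stood at 849, 614, 766, 547, 316, 259 and 252, and without Chir at 506, 460, 406, 333 and 246. It declined from day 6 in the full course and was at 246 or more on every day of the other courses. Rarb was higher on days 12 to 22 than on days 36 and 40 without BrdU (1.31 ± 0.17, adjusted p = 0.0133), as were Lrat (1.80 ± 0.37, adjusted p = 0.0374) and Adh7 (1.93 ± 0.23, adjusted p = 0.0108). Dhrs3 (0.37 ± 0.14, adjusted p = 0.134) and Rarres2 (-0.13 ± 0.24, adjusted p = 0.733) did not pass. Of the wider list of retinoic acid response and carrier genes, 7 of 29 tested were higher in that comparison and 0 lower. Among all genes 7.42% were higher and 7.25% lower. The retinoic acid hydroxylases Cyp26a1, Cyp26b1 and Cyp26c1 passed the thresholds and were left out by symbol. Their mid-course means did not all follow those of the 5 genes. Cyp26a1 had 4000 in the full course, 26 without BrdU and 1614.3 without Chir. Cyp26c1 had 77.7, 0.3 and 17 in the same order, and Cyp26b1 had 2176.7, 3253 and 2244.3.

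Of the 9 endoderm genes, 6 had lower mid-course means in both other courses than in the full course, namely Cubn, Amn, Fgb, Fgg, Gc and Sox7. The full course values were used to choose them, so these levels are a description. The 9 cover the uptake receptor pair Cubn and Amn, the plasma proteins Fgb and Fgg (fibrinogen chains), Gc (vitamin D binding protein), Trf (transferrin) and Fetub, the tryptophan-degrading enzyme Tdo2 and the transcription factor Sox7. None was above its mid-course mean on day 6 of the full course (44.9% of all genes were). Cubn stood at 22, 1002, 2276, 1980, 1024, 358 and 184 over the full course, at 8 to 22 without BrdU and at 12 to 48 without Chir. Amn stood at 2, 126, 150, 104, 24, 20 and 7 in the full course, at 0 or 1 without BrdU and at 2 to 7 without Chir. The median log2 difference over the 9 was -3.39 without BrdU and -2.92 without Chir. Fetub had a higher mid-course mean without BrdU (288 against 200.3) and Tdo2 without Chir (95.7 against 67.7). Trf was higher in both, with 806, 3638 and 4974 on days 12 to 22 without BrdU and 572, 844 and 1080 without Chir against 420, 566 and 262 in the full course. The endoderm marker sums given above, whose 10 markers include Sox7, also reached their highest value in the full course. They were not set beside these 6 genes day by day, and the part of endoderm cells in the 6 genes was not tested. Of the 36 genes of the visceral endoderm list in the table, 7 were members. Without BrdU, Fetub (2.73 ± 0.37, adjusted p = 0.0149) and Sox7 (1.43 ± 0.32, adjusted p = 0.0465) were higher on days 12 to 22 than on days 36 and 40. Gc was the only one lower, listed at 0 on all 3 mid-course days and at 12 and 6 on the late days, a call that was lost without day 18 (adjusted p = 0.0766) or day 22 (adjusted p = 0.0535).

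The courses without Chir and without BrdU were compared over days 6 to 30 with day as a block, which involves no library used to choose the members. Psg17, Sprr2f and the neuropeptide genes Scg2, Vgf and Nts were higher without Chir, and Enpp2, Ptprr, Apcdd1 and Draxin were higher without BrdU. Of 146 members tested, 51 were higher without Chir (34.9%, against 16.9% of all genes) and 31 lower (21.2%, against 15.2%). The median log2 difference was 0.48 for members and 0.01 for all genes. The count of lower members fell to 16 without day 18 and to 20 without day 22, and to 19 without the block.

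Psg17 had the largest difference of the members (6.51 ± 0.41, adjusted p = 0.000169), and all 5 days without Chir lay above all 5 without BrdU. Esx1 (4.18 ± 0.35, adjusted p = 0.000431) also did not overlap. Sprr2f stood at 298, 481, 950, 1081 and 68 without Chir and at 4, 6, 62, 140 and 3 without BrdU (4.59 ± 0.47, adjusted p = 0.000869). It was higher without Chir on each day, with overlap because both courses fell by day 30. Gm15287, a predicted gene, stood at 938, 1554, 917, 648 and 188 against 56, 28, 24, 24 and 38 (4.39 ± 0.46, adjusted p = 0.00091). Chil1, a chitinase-like secreted protein, stood at 900, 1016, 1069, 1046 and 1150 against 24, 77, 76, 51 and 84 (4.15 ± 0.23, adjusted p = 0.000112). Gpr50, a receptor related to the melatonin receptors, stood at 270, 214, 266, 280 and 118 against 12, 16, 22, 20 and 3 (4.04 ± 0.25, adjusted p = 0.000154). In these 3 genes no day without Chir was as low as any day without BrdU.

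All 4 neuropeptide and granule genes were higher without Chir than without BrdU (16.9% of all genes were). Scg2, a granin of secretory vesicles, stood at 182, 320, 352, 336 and 244 without Chir and at 26, 28, 18, 30 and 16 without BrdU (3.55 ± 0.22, adjusted p = 0.000169). In the full course it stood at 168 on day 6 and 56 on day 22. Vgf, a neuropeptide precursor (3.21 ± 0.32, adjusted p = 0.000838), Nts, neurotensin (2.73 ± 0.31, adjusted p = 0.00124), and Cck, cholecystokinin (0.91 ± 0.17, adjusted p = 0.00760), also passed. Scg2 is a known target of cAMP signalling, and its promoter is shown with its cAMP response element at -68 in capitals.
Scg2, chr1:79440027-79440276, minus strand: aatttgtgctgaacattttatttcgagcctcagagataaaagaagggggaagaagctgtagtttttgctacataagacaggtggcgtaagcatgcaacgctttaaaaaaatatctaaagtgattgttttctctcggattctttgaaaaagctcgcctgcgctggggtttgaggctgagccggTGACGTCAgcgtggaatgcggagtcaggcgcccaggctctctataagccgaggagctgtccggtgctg

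Of 40 cAMP response genes tested in the same comparison, 8 were higher without Chir and 9 lower. Over all genes 16.9% were higher and 15.2% lower. Scg2 was the only member among the 40. The 3 non-classical MHC class I genes, H2-Q6, H2-Q7 and H2-Q10 on chromosome 17, were higher without Chir as well (1.66 to 1.86), although H2-Q6 and H2-Q7 stood at most at 45 and 146 there, against 582 and 682 on day 18 of the full course. These genes are close copies and their values are uncertain. Lcn2, an iron-binding protein of mucosa, stood at 2764, 3633, 4208, 4966 and 8314 without Chir and at 200, 492, 674, 570 and 380 without BrdU (3.38 ± 0.26, adjusted p = 0.000377), with every day higher without Chir.

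Of the 9 secreted growth factors and their inhibitors, 7 were lower without Chir than without BrdU and 1 was higher. Over all genes 15.2% were lower and 16.9% higher. Most of the 31 lower members lay outside this group. Set beside the full course without a test, the mid-course mean was higher in 7 of the 9 without BrdU and in 2 without Chir. The median log2 difference from the full course was 1.04 without BrdU and -0.925 without Chir. Apcdd1, an inhibitor and target of Wnt signalling, stood at 140, 190, 144, 171 and 80 without Chir and at 2634, 1989, 1212, 1473 and 440 without BrdU (-3.24 ± 0.23, adjusted p = 0.000273). Draxin, a secreted axon guidance protein that binds Wnt coreceptors, stood at 243, 159, 102, 79 and 20 against 939, 855, 735, 694 and 192 (-2.70 ± 0.20, adjusted p = 0.000304). Both were lower without Chir on each day. Wnt4 (-1.72 ± 0.19, adjusted p = 0.00115), Sostdc1, an inhibitor of BMP and Wnt (-1.18 ± 0.28, adjusted p = 0.0181), and Notum (-0.83 ± 0.16, adjusted p = 0.00822) were lower too. So were Bmp2 (-1.09 ± 0.22, adjusted p = 0.0104) and Stc1, the hormone stanniocalcin (-1.15 ± 0.28, adjusted p = 0.0202). Gdf10 did not pass (-1.73 ± 0.58, adjusted p = 0.0575). The exception was Gdf15, a stress-induced hormone of the TGF-beta family, at 380, 804, 849, 1388 and 712 without Chir against 47, 141, 178, 226 and 130 (2.56 ± 0.13, adjusted p = 9.77e-05). In the wider Wnt feedback and target list, 18 of 34 genes tested were lower without Chir than without BrdU and 6 higher. In the course without BrdU, 6 of the 9 growth factor genes were higher on days 12 to 22 than on days 36 and 40. The share of all genes was 7.42%. Stc1 led the 6, at 678, 599 and 750 against 12 and 10 (5.82 ± 0.17, adjusted p = 0.00154).

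Enzymes of lipid signalling included the member that stood furthest lower without Chir than without BrdU. Enpp2, autotaxin, which makes lysophosphatidic acid, stood at 377, 242, 152, 157 and 204 without Chir and at 11324, 11324, 6860, 6078 and 4501 without BrdU (-5.13 ± 0.18, adjusted p = 3.80e-05). In the full course it fell from 3840 on day 6 to 168 on day 22. Its mid-course mean was 1036 there, 8087.3 without BrdU and 183.7 without Chir. Ptgs2, the inducible cyclooxygenase, stood at 768, 859, 780, 944 and 668 without Chir and at 3854, 4226, 3102, 4518 and 341 without BrdU (-1.58 ± 0.48, adjusted p = 0.0430), lower on days 6 to 22 and higher on day 30. Pla2g7, a secreted phospholipase, was higher without Chir than without BrdU (1.67 ± 0.44, adjusted p = 0.0249). It touched the ceiling without Chir on day 18. Ptprr, a tyrosine phosphatase, stood at 36, 22, 14, 26 and 16 against 958, 1244, 858, 784 and 306 (-5.07 ± 0.26, adjusted p = 9.77e-05). Psca (-3.66 ± 0.80, adjusted p = 0.0136) no longer passed when day 18 (adjusted p = 0.0596) or day 22 (adjusted p = 0.0503) was left out, and Gm29371 was at -2.67 ± 0.47 (adjusted p = 0.00592).

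Against CiPSC most members were higher in mid-course. The sources used here do not say whether the CiPSC libraries were made and sequenced together with those of the courses. A difference between batches and one between cell states therefore cannot be told apart in these comparisons. In the course without Chir 130 of 147 were higher (88.4%, against 31.7% of all genes) and 4 lower (2.72%, against 34.4%). In the course without BrdU, tested against the same 6 CiPSC libraries in the same fit, 124 were higher (84.4%, against 31.2%) and 8 lower (5.44%, against 34.7%). In 111 members every CiPSC library was below the lowest of the 6 mid-course libraries (75.5%, against 21% of all genes). In CiPSC 32 members were listed at 0 in all 6 libraries, and without them 98 and 93 of 115 were higher, with median log2 differences of 4.48 and 4.18. Prl2c2, Prl2c3, Mcpt1, Cck, Enpp2, Xdh and Sprr1a, named for their large differences, were all listed at 0 there, so no fold is given. Plac8, a cysteine-rich protein first known from placenta, stood at 2762, 3233 and 2419 on days 12 to 22 without Chir against 0 in 5 CiPSC libraries and 4 in the other (11.06 ± 0.46, adjusted p = 1.22e-09). Pla2g7 stood at 11331, 21988 and 8316 against 0 to 10 (11.89 ± 0.76, adjusted p = 4.07e-08).

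A few members were instead lower in mid-course without Chir or without BrdU than in CiPSC. B4galnt4, a glycosyltransferase, stood at 142 to 383 in CiPSC, at 8, 7 and 2 on days 12 to 22 without Chir (-5.28 ± 0.39, adjusted p = 1.57e-07) and at 39, 26 and 32 without BrdU (-2.83 ± 0.39, adjusted p = 3.91e-05). Gjb5 stood at 52 to 154 in CiPSC and was lower in both courses (-3.15 ± 0.35, adjusted p = 5.11e-06 without Chir and -2.52 ± 0.35, adjusted p = 3.60e-05 without BrdU). Neither overlapped with CiPSC in either course. Bpifb5 stood at 5 to 87 in CiPSC and at 3 or less on those days without Chir (-3.01 ± 0.78, adjusted p = 0.00448), and was listed at 0 without BrdU. Esx1 (22 to 184 in CiPSC, -5.29 ± 0.58, adjusted p = 4.47e-06), Gm12953 (354 to 1994 in CiPSC, -3.69 ± 0.47, adjusted p = 1.96e-05) and Shisa8 (0 to 24 in CiPSC, -2.88 ± 0.92, adjusted p = 0.0148) were lower without BrdU. The call of Shisa8 was lost without day 12 or day 18 of that course (adjusted p = 0.0525 and 0.0535). Chrna4, a nicotinic receptor subunit, was listed at 0 on days 12 to 22 without Chir and at 0 to 14 in CiPSC, and its call (adjusted p = 0.0462) was lost under several alternatives, among them without any one day of that course (adjusted p = 0.0989 to 0.100). In the full course, whose values the rule used, some of these genes had mid-course means above their CiPSC means. They were Gjb5 (187.7 against 94.8), Esx1 (142.3 against 77), Bpifb5 (59 against 34.5), Shisa8 (64 against 13.3) and Chrna4 (65.3 against 5.3). B4galnt4 (89.7 against 247.5) and Gm12953 (205 against 742.8) were below. The 5 members with the highest CiPSC means were Scd1 (778 to 1756), Gm12953, Sprr2a2 (506 to 1206), Gm38271 (114 to 1303) and Notum (270 to 526). All but Gm12953 had higher mid-course means in both courses than in CiPSC.

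A linear trend with day in the course without Chir, which ended at day 30, gave few calls. Of 146 members tested, 0 rose (0.289% of all genes did) and 3 fell (2.05%, against 0.42% of all genes). At an unadjusted p under 0.05 in this fit, 7 members rose and 25 fell. The shares of all genes at that level were not counted, so the imbalance is not read as a trait of the members. The 3 were Draxin (-1.42 ± 0.17 per 10 days, adjusted p = 0.0476), Fbxo2, a ubiquitin ligase subunit that binds glycoproteins (-1.33 ± 0.15, adjusted p = 0.0476), and Rarres2 (-0.56 ± 0.07, adjusted p = 0.0478). Fbxo2 stood at 308, 193, 139, 100 and 30 and Rarres2 at 452, 402, 310, 250 and 184 on days 6 to 30, each lower on every later day. No call remained when any one day was left out, with no filter on low values, or with no intensity trend, and adjusted p of these 3 genes then ran from 0.0772 to 0.215.

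Other members can be described in smaller groups. Of the 13 neural receptor, adhesion and synapse genes, 9 were above their mid-course mean on day 6 of the full course (44.9% of all genes were). Snap25, of the vesicle fusion machinery, stood at 119, 203 and 144 on days 12 to 22 without BrdU and at 0 and 7 on days 36 and 40 (5.75 ± 0.91, adjusted p = 0.0204), with no overlap. The 8 solute carriers and channels included Slc7a11, the cystine transporter, at 1588, 2774 and 3102 on those days without BrdU against 255, 384 and 429 without Chir, and over days 6 to 30 it was lower without Chir (-2.02 ± 0.50, adjusted p = 0.0202). Ahr, the dioxin receptor, and Nqo1, a quinone reductase, belong to 5 genes of oxidative and xenobiotic response. Without BrdU, 4 of the 5 were higher on days 12 to 22 than on days 36 and 40 (7.42% of all genes were). Of the immediate early and stress regulators, Fosl1, an AP-1 subunit, stood at 748, 618, 270, 401, 2, 48 and 8 over the full course. Without BrdU it stood at 633, 910, 633, 910, 8, 162 and 20, and without Chir at 194, 268, 434, 759 and 66. Fosl1 was lowest on day 30 in each course. Trib1, a pseudokinase, stood at 4201, 2543, 1036 and 819 on days 6 to 22 of the full course and at 156 on day 30.

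The highest mid-course means belonged to a mixed set. By mid-course mean the first 15 included Gm26809, Sprr2a2, Ptgs2, Scd1, Mmd, Pla2g7, Prl2c3, Gm38271, Slmapos2, Cubn, Gm12840, Zfp972, Trib1 and Plac8. The values carry no unit, some are at the ceiling, and gene length is not allowed for. The order therefore does not rank expression between genes. Gm26809, a predicted gene, was at the ceiling on days 6, 12 and 18 of the full course and stood at 11338 on day 22, 1127 on day 30 and 510 in MEF. Without BrdU it was still at the ceiling on day 30. Counting strand is not given in the sources used here, so values of Slmapos2 and of predicted genes that overlap others are uncertain. Zfp972, a zinc finger gene, stood at 11346, 8336 and 8336 on days 12 to 22 without Chir and still at 8336 on day 30, against 3242, 1244, 394 and 125 in the full course on the same days. By annotation 136 of the 147 are protein coding. With 500000 bases as the largest gap, 42 lie in 15 groups of neighbours, among them Lrat, Fgg and Fgb on chromosome 3 (82892579 to 83049863) and Arc, Psca and Ly6d on chromosome 15 (74669083 to 74763620). By symbol, 6 of 14 Sprr genes, 6 of 25 Prl genes, 3 of 6 Tmprss11 genes and 3 of 6 H2-Q genes of the table were members, against 6 of 305 Slc and 1 of 385 Zfp genes. The pluripotency list (34 genes in the table) and the smooth muscle and fibroblast list (25) held no member. With 147 members among 16718 genes, lists this short can hold none by chance. The rule also shuts out genes that are as high in MEF or on the late days as in mid-course. Nothing is therefore concluded from these empty lists.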

How the data were processed

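RNA-seq values of 26 libraries came from 1 table. The authors deposited whole-number values that are treated here as a score: the table's name says CPM, but every library has nearly the same sum and distribution, so the values appear quantile-normalised and rounded. Per the submitters' processing notes, bcl2fastq, Bowtie2, RSEM and mm10 were used; versions, annotation, strand setting and normalisation are not given in the sources used here. Library preparation used a TruSeq RNA kit and a NextSeq instrument, per the labels' protocols. Depth is unknown, so no counting interval is given.

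Tests used limma 3.58.1 in R 4.3.3 on log2(value + 1), which understates changes of low genes, with an intensity trend, two-sided, after leaving out genes whose mean over the libraries of a fit was under 1. Calls are Benjamini-Hochberg adjusted p under 0.05 over all genes tested. The steps were tested on simulated data. Errors are standard errors. No library that chose the members entered a test. The course without Chir and the course without BrdU were compared with day as a block because each day has 1 library of either. Both mid-course groups were compared with CiPSC in 1 fit of 3 groups and share the CiPSC libraries. Positions are from GENCODE M21 (mm10), for all 147 members, and promoter sequences from RefSeq (GRCm38.p6) for 102.

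The members, gene lists and tests were chosen with earlier results of these data known. The naming rule takes the 15 highest mid-course means, the 10 highest ratios to both MEF and the late days, up to 6 called members each way per comparison, members of the function lists, the 5 highest CiPSC means, the genes beside each threshold, and the extremes of days 6 and 30. The grouping by role, and the other members named in it, were chosen after values were seen. One gene that the rule names is not reported here.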

Additional observations from a re-analysis of the deposited data

Results flagged for a closer look

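Among the members whose CiPSC levels are given above, 3 had 1 CiPSC library far from the other 5, by a gap that chance gives in about 1 of 20 groups. Gm12953, a predicted gene, stood at 1994 in CiPSC 5 and at 354 to 681 in the others. Sprr2a2, one of several near-identical copies, stood at 1206 in CiPSC 5 and at 506 to 700 in the others. Plac8 stood at 4 in CiPSC 3 and at 0 in the others, a difference of a few units near the bottom of the scale. The cause was not tested.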

How the results depend on the processing

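Both comparisons with CiPSC kept their counts of members within 1.5 times under each alternative run (another pseudocount, other filters on low values, no intensity trend, only the groups compared, and leaving out each library). Between the courses without Chir and without BrdU, leaving out 1 day gave 2772 to 4783 genes (5176 with all days) and 16 to 37 members lower without Chir (31), and without the day block 19 members were lower. Within the course without BrdU, leaving out 1 library gave 238 to 2190 genes (2316 with all), 20 to 69 members higher (76) and 1 to 2 lower (3), and 5 were lower with day 30 added to the late days. The slope without Chir gave 113 genes and 3 members lower. With a minimum mean of 5 it gave 340 genes and 1 member higher. With no filter it gave 0 genes and 0 members lower, with no intensity trend 0 and 0, and with any 1 day left out 0 and 0. For single named members, 570 of 621 values under an alternative kept their call and direction, 51 lost the call and 0 reversed. The cause of these shifts was not tested; leaving out a library also lowers the residual degrees of freedom. The labels number no replicates of the courses, so the block is the shared day. Depth is unknown, so what depth limits cannot be stated.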

Other observations

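Milk, mucosal and mineralised-tissue proteins were spread among the members without forming a chromosomal cluster. Csn3, the milk protein kappa-casein, stood at 418, 921, 3644, 3644 and 276 on days 6, 12, 18, 22 and 30 without Chir and at 140, 350, 888, 792 and 50 without BrdU, higher without Chir on each day (log2 difference 1.93 ± 0.17, adjusted p = 0.000551). Aqp5, a water channel of glands, stood at 1126, 1650, 2167, 1876 and 874 without Chir and at 408, 168, 238, 266 and 32 without BrdU, with no overlap (3.10 ± 0.40, adjusted p = 0.00182). Mt3, a metallothionein, stood at 58, 116, 156, 150 and 17 without Chir and at 6, 10, 6, 6 and 0 without BrdU, also with no overlap (3.92 ± 0.31, adjusted p = 0.000377). Ibsp, a bone matrix sialoprotein, stood at 233, 253 and 192 on days 12, 18 and 22 without BrdU and at 11 and 0 on days 36 and 40 (6.03 ± 1.04, adjusted p = 0.0253). All 4 genes were chosen for mention after their values were seen.

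Among the Prl genes that missed the rule, several had higher mid-course means without Chir than in the full course. Prl3d1 stood at 17.3 in the full course, 5.3 without BrdU and 147 without Chir, and Prl3d2 at 14.7, 0 and 201.3. Lor, which encodes the cornified envelope protein loricrin, stood at 17.3, 11 and 307.7 in the same order and missed the rule by its level and its late value.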
